A study of Mus musculus with 18 samples.

Results

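The genes described here encode the integrins, which are cell surface receptors for the extracellular matrix, and the laminins, nidogens and perlecan, which build the basement membrane that many integrins bind. They were taken by gene symbol alone: every symbol that begins with Itga or Itgb, every laminin chain gene (Lama, Lamb and Lamc with a digit), and Nid1, Nid2 and Hspg2. This gave 42 of the 18193 mouse genes with a probe set of their own, namely 16 integrin alpha subunits, 9 integrin beta subunits, 10 laminin chains, 3 linkers (Nid1, Nid2, Hspg2) and 4 genes whose symbol only refers to an integrin. The rule uses symbols and no measured value, although earlier results of these data were known when it was chosen. Of the 42 genes, 35 were tested because 2 or more arrays reached a signal of 22.5 (the median of all values); Itga2, Itgae, Itgam, Itgb2l, Itgb6, Itgbl1 and Lamb3 did not.

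An integrin is a pair of 1 alpha and 1 beta chain, and the pair sets the ligand: Itga3, Itga6 and Itga7 with Itgb1 bind laminin, Itga5 with Itgb1 and most partners of Itgav bind matrix proteins that carry an arginine-glycine-aspartate site, Itga2b with Itgb3 is the fibrinogen receptor of platelets, and Itgb2 with Itgal, Itgam or Itgax is confined to white blood cells. A laminin joins 1 alpha, 1 beta and 1 gamma chain, nidogens tie the laminin network to the collagen IV network, and perlecan binds both. In the early embryo the Lama1, Lamb1 and Lamc1 chains form the first basement membranes, Lama4 is the chain of blood vessels, and Lama2 with Itga7 surrounds mature striated muscle.

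The study followed mouse embryonic stem cells of line D3 toward heart muscle, on 18 Affymetrix arrays in 9 groups of 2. In 8 groups, a stably transgenic clone carried enhanced green fluorescent protein under enhancer 5 of Nkx2-5, a transcription factor of early heart cells, with the hsp68 minimal promoter; embryoid bodies made in hanging drops were dissociated on day 5, 6, 7 or 8 and sorted into GFP-positive and GFP-negative cells, once in batch 1 and once in batch 2. The ninth group, selected cardiomyocytes, came from a stable clone with neomycin resistance under the alpha myosin heavy chain promoter and survived G418; its 2 arrays carry no day and no batch, so clone, selection, culture time and batch cannot be told apart. Feeder fibroblasts had been removed before differentiation, ascorbic acid was in the medium, and nothing in the labels says that the selected arrays are separate cultures, so p-values may measure technical spread there.

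Each deposited MAS5 signal, an intensity on a linear scale, was used as log2(signal + 6.8), and a difference is on that scale unless called a signal. The added 6.8 shrinks the difference of a dim gene, and signals of different genes were not set against each other because probes differ. Array medians lay between 18.2 and 29.3; in GFP-positive cells they were 18.2 and 21.3 on day 5 and 29.3 and 29.0 on day 8, and making them equal moved the median of all genes between late and early GFP-positive cells from 0.09 to -0.31. Nkx2-5, compared within each day and batch, was brighter in GFP-positive than GFP-negative cells 8 of 8 times (1.07 ± 0.26 (SE), limma adjusted p = 0.0441), and Myh6, the heart muscle myosin, 7 of 8 times (1.81, adjusted p = 0.255). The arrays are of bulk cells, in which fewer cells of a type and less RNA per cell cannot be told apart.

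The first comparison asked how the sorted fractions differed. Averaged over all days, the laminin chains and linkers lay toward the GFP-positive side while the integrins did not. The median difference was 0.44 over the 12 tested laminins and linkers, of which 12 were above 0 (11 with quantile normalization or equal array medians). On day 6 alone this median was 0.00. Over the 20 tested integrins the median over all days was -0.06, with 9 above 0, beside -0.01 over all 13379 genes tested. At an adjusted p under 0.05 (limma, Benjamini-Hochberg over all genes), 1 of the 35 members passed as higher, Lama3, and 0 as lower; among all genes 2.14% were called higher and 0.538% lower. With batch as a block, 7 members were higher and 0 lower, where the share of all genes called was 3.98% and 1.43%. Leaving out single arrays moved the count of 1 member both up and down, and moved the count over all genes both ways too. Each such fit left 1 array in a group.

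**Figure D1:**
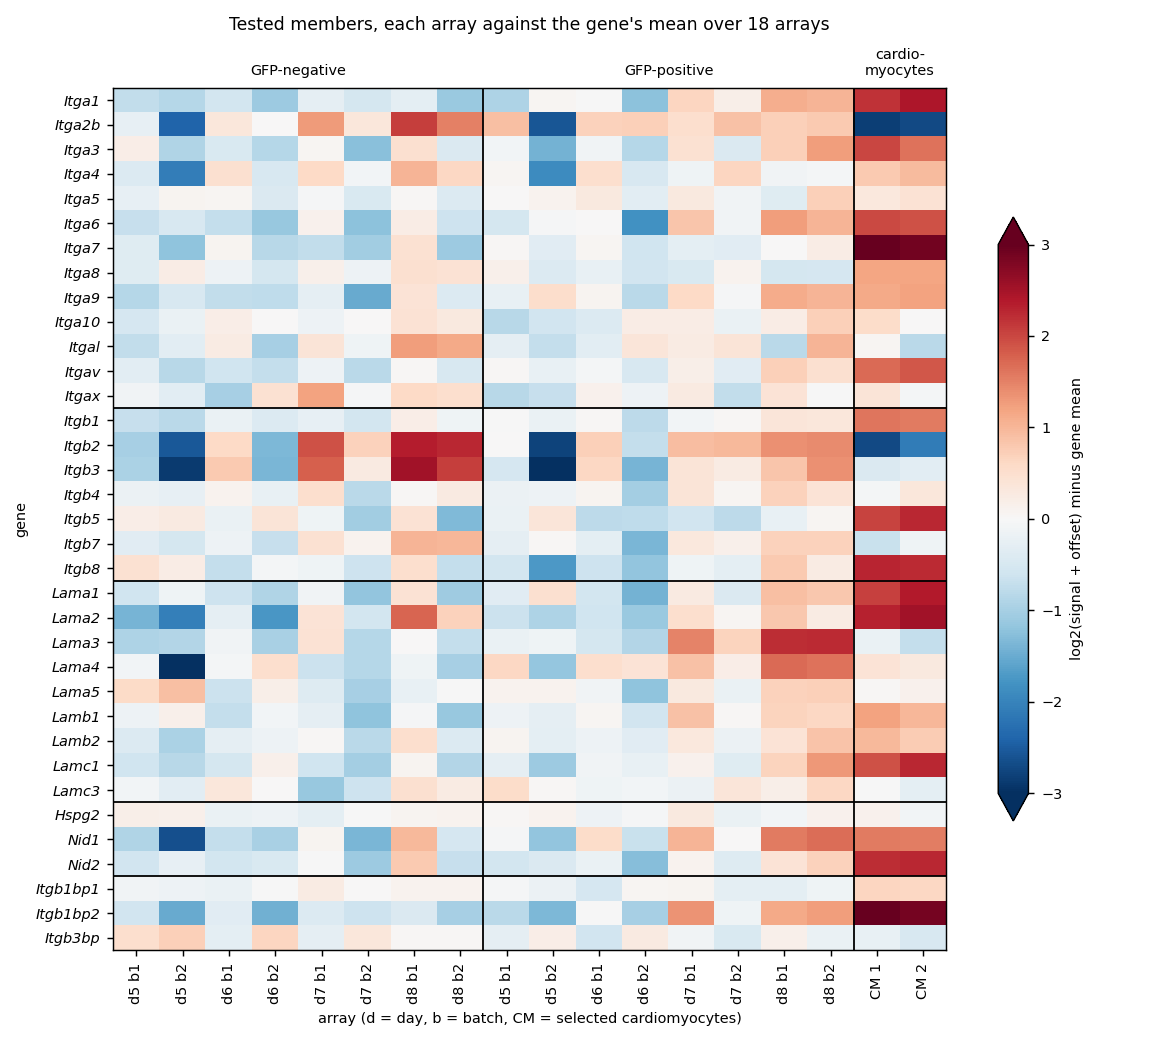
Each cell is log2(signal + 6.8) of 1 of 35 tested members (vertical axis, grouped as alpha, beta, laminin, linker and symbol-only genes) on 1 of 18 arrays (horizontal axis, sorted by fraction, day and batch), minus that gene's mean over the 18 arrays; colours saturate at 3 log2 units. The day 8 GFP-positive arrays are red for most laminin chains, the day 8 GFP-negative arrays for Itga2b, Itgb2 and Itgb3, and the selected cardiomyocytes for Itga7, Itgb1bp2, Itgb5 and Itgb8.

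Lama3, the alpha chain of epithelial laminins, was the member that passed. In each pair of values here and below, batch 1 stands before batch 2. GFP-positive signals of Lama3 were 7.3 and 8 on day 5, 4.4 and 1.9 on day 6, 38.4 and 18.9 on day 7 and 67.7 and 69 on day 8; GFP-negative signals were 1.7 and 1.9 on day 5, 8.1 and 1.4 on day 6, 14.9 and 2.1 on day 7 and 9.4 and 3 on day 8, and the selected cardiomyocytes read 7.3 and 3. Only the 2 day 8 GFP-positive arrays and 1 GFP-positive array of day 7 exceeded 22.5, so its levels elsewhere are those of a dim probe set. Lama3 was therefore tested only through late GFP-positive arrays, the side on which it was then called higher. The difference over all days was 1.11 ± 0.24 (adjusted p = 0.0265; 0.00810 with batch as a block), with 0.89 in batch 1 and 1.33 in batch 2, and it was positive in 7 of 8 pairs. Its adjusted p lay between 0.0522 and 0.0787 without any 1 of the GFP-positive arrays of days 6 to 8 in batch 1, the day 8 GFP-positive array of batch 2, or the day 5, 7 or 8 GFP-negative array of batch 2.

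Nid1, the nidogen of most basement membranes, was the brighter in GFP-positive cells within each of the 8 pairs. Its GFP-positive signals were 338.2 and 150.5 on day 5, 509.8 and 216.6 on day 6, 712.7 and 353.5 on day 7 and 1045.9 and 1135.9 on day 8, and its GFP-negative signals 184.5 and 50.1 on day 5, 209.4 and 173.7 on day 6, 368.9 and 131.4 on day 7 and 696.2 and 242.8 on day 8. Within each day and batch the GFP-positive array was the brighter, although the ranges of the fractions overlapped across days. The difference of 1.12 ± 0.33 missed the threshold (adjusted p = 0.0961) and passed with batch as a block (0.00424). Lama4, the chain of blood vessel laminin, differed by 1.29 ± 0.38 (adjusted p = 0.0961; 0.0364 with the block), from GFP-negative signals of 10.6 to 220.4 (median 117.7) to GFP-positive signals of 65.1 to 520.5 (median 231.6).

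The integrins that came closest were Itgav, Itga9 and Itga1. Itgav, the common alpha chain of vitronectin and other arginine-glycine-aspartate receptors, gave GFP-positive signals of 569.5 and 469 on day 5, 526.7 and 393.6 on day 6, 620.6 and 435 on day 7 and 904 and 777.5 on day 8. Its GFP-negative signals were 441 and 306.1 on day 5, 364 and 332.7 on day 6, 495.7 and 311.2 on day 7 and 565.4 and 396.2 on day 8. It was the brighter in GFP-positive cells in 8 of 8 pairs, where 3.45% of all genes had every pair higher, and differed by 0.52 ± 0.14 (adjusted p = 0.0609; 0.00277 with the block). Itga9, which binds tenascin C and VCAM1, differed by 0.86 ± 0.22 (0.0543; 0.0285 with the block). Itga1, a collagen and laminin receptor, differed by 0.78 ± 0.22 (0.0771; 0.0445 with the block). Melusin (Itgb1bp2), a muscle protein that binds the tail of Itgb1 and is not an integrin, differed by 0.85 ± 0.26 (0.104; 0.0171 with the block).

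The fractions were then compared day by day. On day 5, 0 of 35 members passed (0.0149% of all genes; 2 members at an unadjusted p under 0.05), and on day 6, 0 passed (0% of all genes; 0 members at a raw p below 0.05). Of the 12 laminins and linkers, 8 lay above 0 on day 5 (median 0.45) and 6 on day 6 (median 0.00). The lowest p on day 5 belonged to Itgb8, a partner of Itgav, at -1.49 ± 0.46 (adjusted p = 0.547), and to Itgb1, the most widely shared beta chain, at 0.64 ± 0.23 (0.616); on day 6 they belonged to Itgav at 0.38 and Itgb5 at -0.87. On day 7, 0 members passed (0% of all genes; 5 at an unadjusted p under 0.05), yet all 12 laminins and linkers lay above 0 with a median of 0.72, beside 0.00 over all genes. Lamb1, the beta chain of embryonic laminin, differed there by 1.19 ± 0.39 (adjusted p = 0.479) and Lamc3, a gamma chain, by 0.97 ± 0.33 (0.486).

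Lamc3 was dim throughout. Its GFP-positive signals were 29 and 18.5 on day 5, 15.9 and 16.3 on day 6, 15 and 24.9 on day 7 and 21.1 and 31.3 on day 8, and its GFP-negative signals 16.6 and 13 on day 5, 24.4 and 18.1 on day 6, 4.4 and 9.3 on day 7 and 27.5 and 22.3 on day 8. On day 7 both GFP-positive arrays lay above both GFP-negative ones, on day 6 both lay below them, and on day 8 the fractions overlapped.

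On day 8, 1 of 35 members was higher and 0 lower (2.32% of all genes higher, 0.254% lower), and with batch as a block 6 were higher (4.34% of all genes). Quantile normalization called 3 higher (Itga1, Lama3, Lamc1) and 1 lower (Itga8), beside 557 of all 13379 genes in either direction. Equal array medians called 1 higher (Lama3) and 1 lower (Itga8), beside 268 of all genes. Lama3 passed at 2.58 ± 0.47 (adjusted p = 0.0171), 67.7 and 69.0 against 9.4 and 3.0; its adjusted p was 0.0985 or 0.166 without the GFP-positive array of batch 1 or 2, and 0.159 without the GFP-negative array of batch 2. The block added Itga1 (1.75, 0.0518 without and 0.0276 with it), Lamc1 (1.39, 0.0484 with it), Nid1 (1.39, 0.0453), Itgav (0.82, 0.0117) and Itgb1bp2 (1.91, 0.0111). The median over laminins and linkers was 0.99 (0.01 over all genes), and 7 of these 12 genes had both GFP-positive arrays above both GFP-negative ones, where 26.7% of all genes did. The count of members past the threshold moved both up and down when single arrays were left out, as did the count over all genes. Itga8, a nephronectin receptor, had the lowest p among members below 0, at -0.98 ± 0.27 (adjusted p = 0.0712).

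The chains of the embryonic laminin were followed array by array. Lama1 gave GFP-positive signals of 65.7 and 120.3 on day 5, 56 and 27.7 on day 6, 103.4 and 61.1 on day 7 and 163.1 and 154.6 on day 8 and GFP-negative signals of 54.2 and 77.2 on day 5, 53 and 41.8 on day 6, 77.9 and 33.4 on day 7 and 116 and 37.2 on day 8. Lamb1 gave 958 and 883.9 on day 5, 1126.7 and 715.9 on day 6, 1963.9 and 1097.6 on day 7 and 1717.3 and 1645.2 on day 8 in GFP-positive and 963.1 and 1185.2 on day 5, 647 and 1008.4 on day 6, 887.3 and 462.9 on day 7 and 1053.9 and 487.9 on day 8 in GFP-negative cells. On day 8 both GFP-positive arrays of each chain exceeded both GFP-negative arrays, and the GFP-negative array of batch 2 was the lowest of the 4 for Lama1, Lamb1, Lamc1, Nid1 and Nid2.

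Lamc1, the gamma chain shared by most laminins, gave GFP-positive signals of 94.7 and 50.2 on day 5, 107.1 and 98.5 on day 6, 127.3 and 87.8 on day 7 and 186.4 and 295.8 on day 8. Its GFP-negative signals were 73.5 and 62.2 on day 5, 77.9 and 128.4 on day 6, 73.8 and 53.1 on day 7 and 121.6 and 59.4 on day 8. Its day 8 difference was 0.59 in batch 1 and 2.19 in batch 2; for Lamb1 these were 0.70 and 1.74, and for Lama1 0.47 and 1.88. Nid2, the second nidogen, gave 115.5 and 125 on day 5, 149.9 and 67.5 on day 6, 186.8 and 131.3 on day 7 and 232.9 and 280.9 on day 8 in GFP-positive and 112.9 and 144.7 on day 5, 115.3 and 123.4 on day 6, 172.1 and 77.7 on day 7 and 303.1 and 104.7 on day 8 in GFP-negative cells. Its fractions overlapped on day 8.

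Perlecan (Hspg2) was flat on the probe set used: GFP-positive signals were 177 and 185.9 on day 5, 156.2 and 170 on day 6, 212.2 and 149 on day 7 and 161.8 and 191.1 on day 8, GFP-negative signals 195.8 and 192.2 on day 5, 149.2 and 155.3 on day 6, 139.8 and 171.6 on day 7 and 184.3 and 185.8 on day 8 and cardiomyocyte signals 189.5 and 163.7. The difference over all days was 0.03 ± 0.10. A second, dimmer probe set of Hspg2 differed by 2.15 on day 8, so the 2 probe sets of this gene disagree. Second probe sets of Lamb1 (1.89), Lamc1 (1.25), Lama5 (1.37), Nid1 (0.94) and Itga6 (1.94) lay on the same side of 0 on day 8 as the ones used.

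Marker genes of several cell types moved with the fractions. The summed signal of 10 endothelial markers was 3227.3 to 7105.3 in GFP-positive and 990.9 to 1859.6 in GFP-negative cells, and 7 of the 10 were higher over all days. For 12 markers of parietal and visceral endoderm, tissues that lay down laminin, the day 8 sums were 15388.3 to 16631.3 in GFP-positive and 2254.1 to 4786.7 in GFP-negative cells. Of these 12, 3 were higher on day 8, and on day 5 their median difference was -0.19. For 10 heart muscle markers the day 8 sums were 23176.7 to 23914.7 and 3787.7 to 7433.9, and 0 of the 10 passed on day 8 or over all days. On day 8, Cdh5 of endothelium read 234.4 and 277.4 in GFP-positive and 58.2 and 41.2 in GFP-negative cells, and Sox17 of endoderm and endothelium 668.9 and 652.7 and 78.6 and 46.9. The part of these cells in the laminin differences was not tested.

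**Figure D2:**
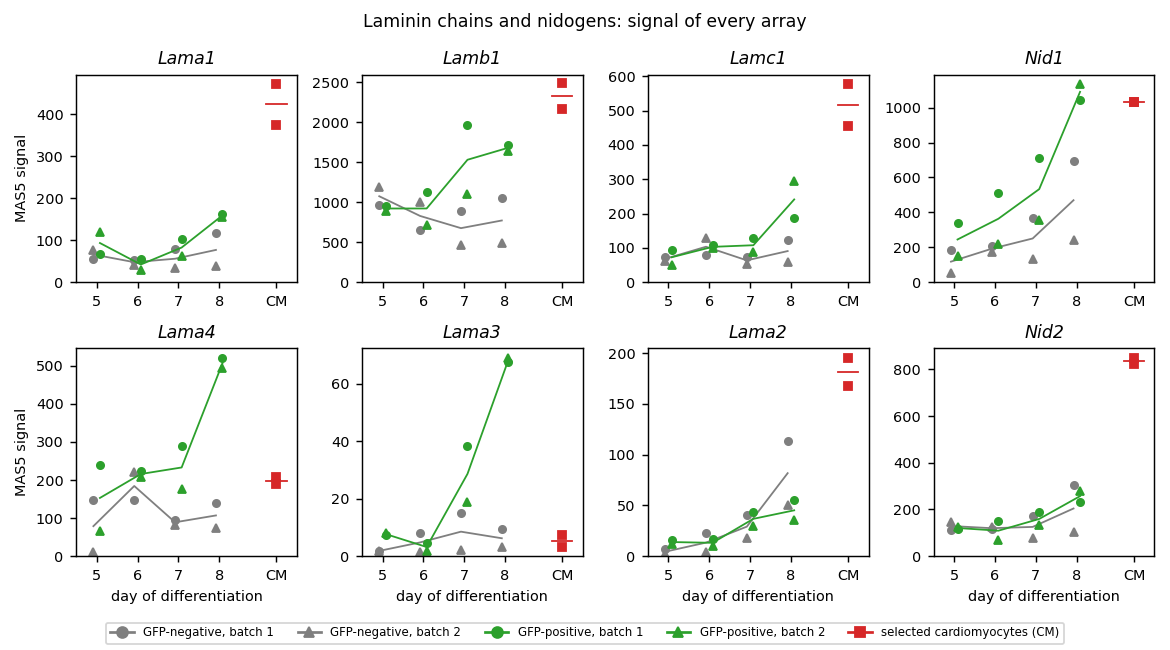
MAS5 signal (vertical axis, linear, from 0) of 8 laminin and nidogen genes on every array, by day of differentiation (horizontal axis) with the selected cardiomyocytes at the right; circles are batch 1, triangles batch 2, squares cardiomyocytes, and lines join or mark group means of 2 arrays. Lama3 and Lama4 are brightest on the 2 day 8 GFP-positive arrays, while Lama1, Lama2, Lamc1 and Nid2 are brightest in cardiomyocytes.

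The second comparison asked how each fraction changed with time, days 7 and 8 against days 5 and 6. In GFP-positive cells 9 of 35 members rose and 0 fell, where 11.3% of all genes rose and 8.03% fell; 15 rose with batch as a block (15.4% of all genes). The median difference was 0.78 over members, 0.67 over integrins and 0.83 over laminins and linkers, beside 0.09 over all genes, and 32 of 35 members lay above 0. With equal array medians the integrin and laminin medians were 0.34 and 0.41, beside -0.31 over all genes. The 9 were Lama3 (2.08), Itgb2 (1.87), Itgb1bp2 (1.70), Itga6 (1.35), Itga1 (1.26), Lama2 (1.23), Itgb8 (1.17), Itgb7 (0.94) and Lamc1 (0.85).

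The block added Nid1, Lamb1, Itga3, Itgb3, Itgb1 and Itgav. The count of 9 was 1 without the batch 1 array of day 7 or the batch 2 array of day 6 GFP-positive cells, 3 without either day 8 GFP-positive array, 4 without the batch 2 array of day 5 and 16 without the batch 1 array of day 6. Of the 9 members, Lama3 alone passed with every array left out in turn (2.08 ± 0.33, adjusted p = 0.00506). Lama3 was tested only through late GFP-positive arrays, and each of these fits kept the genes chosen on all 18 arrays. Over all genes the count moved the same way as the member count without each of the arrays named. All 4 late GFP-positive arrays lay above all 4 early ones for 6 of 35 members, where 10.5% of all genes did.

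Itga6, the laminin receptor chain of epithelium and stem cells, gave GFP-positive signals of 255.6 and 366.1 on day 5, 377.9 and 101.2 on day 6, 674.2 and 349.5 on day 7 and 907.8 and 764.3 on day 8. Its GFP-negative signals were 228.6 and 267.6 on day 5, 224.4 and 166 on day 6, 411.2 and 155.5 on day 7 and 437.3 and 238.9 on day 8. Both day 8 GFP-positive arrays exceeded every GFP-negative array; its rise in GFP-positive cells was 1.35 ± 0.39 (adjusted p = 0.0298). Itga1 gave 18.2 and 42.5 on day 5, 40.3 and 13.3 on day 6, 67.9 and 46.6 on day 7 and 94.6 and 89.4 on day 8 in GFP-positive and 21.8 and 19.5 on day 5, 25.5 and 15.5 on day 6, 32.8 and 26.1 on day 7 and 32.1 and 15.3 on day 8 in GFP-negative cells. All 4 late GFP-positive arrays exceeded all 4 early ones and every GFP-negative array, and the rise was 1.26 ± 0.31 (0.0155).

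Melusin gave GFP-positive signals of 13.2 and 7 on day 5, 28.2 and 10.7 on day 6, 83.3 and 25.6 on day 7 and 71 and 76.5 on day 8 and GFP-negative signals of 16.7 and 5.5 on day 5, 21.1 and 6.2 on day 6, 19.5 and 16.1 on day 7 and 19.1 and 10.9 on day 8. Its rise was 1.70 ± 0.37 (adjusted p = 0.0106), with early and late GFP-positive arrays overlapping at 28.2 on day 6 and 25.6 on day 7. Itgb8 gave 16.3 and 3.4 on day 5, 15.3 and 8.1 on day 6, 24 and 20.9 on day 7 and 52 and 33.1 on day 8 in GFP-positive and 40.1 and 33 on day 5, 13.9 and 25.7 on day 6, 24.3 and 15.1 on day 7 and 41.2 and 13.9 on day 8 in GFP-negative cells. Its rise of 1.17 ± 0.33 (0.0267) started from day 5 values of 16.3 and 3.4, below both day 5 GFP-negative arrays.

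Lama2, the alpha chain of muscle and nerve laminin, rose in both fractions. Its GFP-positive signals were 15.9 and 11.7 on day 5, 16.5 and 9.6 on day 6, 43.5 and 29.9 on day 7 and 54.8 and 35.4 on day 8, and its GFP-negative signals 6.7 and 1.8 on day 5, 22.7 and 3.8 on day 6, 40.6 and 17.4 on day 7 and 113 and 50.5 on day 8. The rise was 1.23 ± 0.36 in GFP-positive (adjusted p = 0.0332) and 1.94 ± 0.36 in GFP-negative cells (0.00772), where early and late arrays overlapped at 22.7 on day 6 and 17.4 on day 7. The call in GFP-positive cells was lost, with adjusted p from 0.0635 to 0.132, without the day 7 array of batch 1, either day 8 array, or the day 5 or 6 array of batch 2.

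In GFP-negative cells 4 members rose and 0 fell (7.25% of all genes rose, 5.25% fell), and 7 rose with the block (10.2%). Quantile normalization called 5 higher and 1 lower (Lama5), beside 1973 of all 13379 genes in either direction. Equal array medians called 4 higher and 1 lower (Lama5), beside 1509 of all genes. The median was 0.27 over members, 0.30 over integrins and 0.06 over laminins and linkers, beside -0.01 over all genes; the last family was at -0.07 with equal array medians. Besides Lama2, these were the blood cell integrins Itgb2 (2.87 ± 0.60, adjusted p = 0.0120), Itgb3 (2.76 ± 0.66, 0.0194) and Itgb7 (1.08 ± 0.24, 0.0161). The block added Itga2b (1.89, 0.0546 without and 0.0209 with it), Itga4 (1.15, 0.106 and 0.0403) and Nid1 (1.11, 0.140 and 0.0116). The count was 1 without the day 7 array of batch 1 or the day 5 or 6 array of batch 2, 6 without the day 6 array of batch 1 and 7 without the day 5 array of batch 1. Over all genes the count moved the same way as the member count in these fits. Of the members that rose, 3 did so in both fractions (Itgb2, Itgb7, Lama2), which is 33.3% of the 9 and 75.0% of the 4. Among all genes 418 rose in both, 27.6% of the 1516 that rose in GFP-positive and 43.1% of the 970 that rose in GFP-negative cells.

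Itga2b, the platelet glycoprotein that also marks the first blood progenitors, gave GFP-negative signals of 375.3 and 78.8 on day 5, 567.7 and 451.4 on day 6, 1101.2 and 571.2 on day 7 and 1923.5 and 1290 on day 8 and GFP-positive signals of 836.9 and 70.6 on day 5, 725.3 and 742.2 on day 6, 641.2 and 830.6 on day 7 and 740.4 and 776.1 on day 8. All 4 late GFP-negative arrays lay above all 4 early ones, and both day 8 GFP-negative arrays above every GFP-positive one. The share of all genes with such separation in GFP-negative cells is not given, here or for Itgb2 and Itgb7 below. Its partner Itgb3 gave 25.6 and 1.7 on day 5, 99.9 and 17.2 on day 6, 208.2 and 67.9 on day 7 and 348 and 254.3 on day 8 in GFP-negative and 36.9 and 0.8 on day 5, 88.2 and 17 on day 6, 75 and 66.5 on day 7 and 104.5 and 154.3 on day 8 in GFP-positive cells. Batch 1 was brighter than batch 2 in each day of GFP-negative cells for both genes.

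Itgb2, the beta chain of white blood cell integrins, gave GFP-negative signals of 67.3 and 18.8 on day 5, 216.8 and 51.5 on day 6, 549.6 and 230.7 on day 7 and 755.6 and 698.9 on day 8 and GFP-positive signals of 142.3 and 14.7 on day 5, 235.7 and 83 on day 6, 273 and 284.3 on day 7 and 373.8 and 390.3 on day 8. All 4 late arrays exceeded all 4 early ones in each fraction; its rise in GFP-positive cells was 0.78 in batch 1 and 2.95 in batch 2 (1.87 ± 0.60, adjusted p = 0.0441), and that call was lost in 10 of 18 fits that each left out an array. Itgb7, the beta chain of lymphocyte homing integrins, gave 28.5 and 24.2 on day 5, 33.5 and 21.3 on day 6, 54.8 and 42 on day 7 and 84.1 and 82.9 on day 8 in GFP-negative and 30.7 and 39.1 on day 5, 30 and 10.7 on day 6, 49.3 and 43 on day 7 and 66.1 and 66.4 on day 8 in GFP-positive cells. Late arrays exceeded early ones in each fraction.

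For Itgb7, which rose in both fractions, and Itga2b, which passed in GFP-negative cells with the block alone, the 250 bases before the start in the RefSeq promoter table are shown (GRCm38.p6, 5′ to 3′ on the gene's strand; Itga2b at chr11:102469884-102470133 and Itgb7 at chr15:102231936-102232185, both on the minus strand). The Itgb7 window lies inside the annotated gene, whose span ends at 102233405, so another start is annotated further upstream. Capitals mark matches, on either strand, to a GATA motif (AGATA or TGATA followed by A or G), to GAGGAA, a form of the ETS family site, and to the E-box CAGCTG; no matches overlapped.
Itga2b: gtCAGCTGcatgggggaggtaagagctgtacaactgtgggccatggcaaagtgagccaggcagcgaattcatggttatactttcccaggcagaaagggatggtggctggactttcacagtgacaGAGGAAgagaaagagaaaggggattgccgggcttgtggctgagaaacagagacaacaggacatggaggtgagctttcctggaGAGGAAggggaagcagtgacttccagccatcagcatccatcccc
Itgb7: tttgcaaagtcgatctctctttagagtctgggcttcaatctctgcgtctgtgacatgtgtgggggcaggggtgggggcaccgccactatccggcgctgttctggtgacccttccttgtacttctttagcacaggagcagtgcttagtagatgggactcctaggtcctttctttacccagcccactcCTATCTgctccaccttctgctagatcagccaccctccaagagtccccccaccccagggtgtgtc
Itga2b held 2 GAGGAA and 1 CAGCTG, and Itgb7 held 1 GATA motif, on the opposite strand. Of 32851 windows of the same length, 26.5% held a GATA motif, 23.3% GAGGAA and 13.0% CAGCTG. Among 31 windows of the 28 members with an entry, 3 held a GATA motif, 14 GAGGAA and 8 CAGCTG.

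Most markers of blood cells rose with time in both fractions. In GFP-positive cells Itgb2 and Itgb7 rose too, while Itga2b missed the threshold (0.79, limma adjusted p = 0.376). Itgb3 missed it there as well (1.79, 0.0714) and passed with the block (0.0107). The summed signal of the 6 megakaryocyte and platelet markers with a probe set of their own (of 8 listed) was 83.7 to 115 in day 5 and 3706.7 to 6546 in day 8 GFP-negative cells, and 60 to 160.3 and 1650.9 to 1829.2 in GFP-positive cells; all 6 rose in each fraction. For 10 markers of macrophages and other leukocytes the sums were 213.4 to 240.2 and 4658.3 to 5270.1 in GFP-negative cells, and 156.3 to 219.5 and 2078.7 to 2337.1 in GFP-positive cells; 9 and 7 of them rose. Pf4, the platelet chemokine, read 2252.1 in batch 1 and 281.1 in batch 2 of day 7 GFP-negative cells. Their part in the values of Itga2b, Itgb2, Itgb3 and Itgb7 was not tested.

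Other lists moved with time as well. The 7 tested fibroblast markers rose in 6 cases in GFP-negative cells (summed signal of the 8 listed, 151.2 to 803.6 on day 5 and 8373.9 to 19872.8 on day 8) and in 0 in GFP-positive cells (median 1.34). The 12 endoderm markers rose in 7 cases in GFP-positive cells, where 3 of the 12 laminins and linkers rose. Of 8 markers of undifferentiated cells, 2 fell in GFP-negative cells, with sums of 1769.4 to 9727 on day 5, and of 6 smooth muscle markers 1 rose there. Their part in the member changes was not tested.

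**Figure D3:**
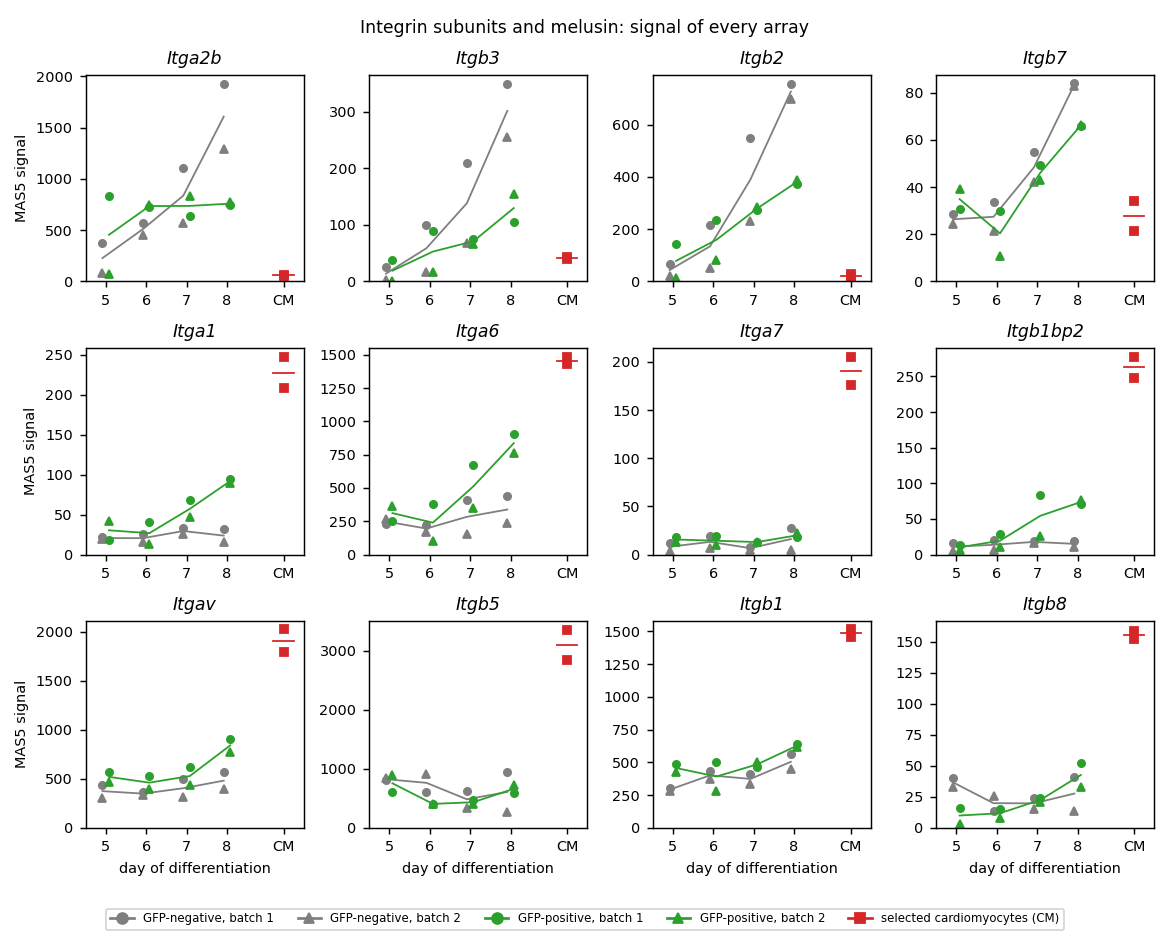
MAS5 signal (vertical axis, linear, from 0) of 11 integrin subunits and melusin (Itgb1bp2) on every array, by day of differentiation (horizontal axis) with the selected cardiomyocytes at the right; circles are batch 1, triangles batch 2, squares cardiomyocytes, and lines join or mark group means of 2 arrays. Itga2b, Itgb3, Itgb2 and Itgb7 are highest in day 8 GFP-negative cells, and the other 8 genes are highest in cardiomyocytes.

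Whether the change with time differed between the fractions was tested as an interaction, which 0 of 35 members passed (0.142% of all genes; limma, 7 members at an unadjusted p under 0.05); the batch block also gave 0 (1.06% of all genes). Among laminins and linkers the median interaction was 0.69, with 11 of 12 above 0 (8 with equal array medians), beside 0.04 over all genes. Lama5, the chain of most later basement membranes, had the lowest p (1.32 ± 0.36, adjusted p = 0.132), followed by Lama3 (1.64 ± 0.47, 0.157). Lama5 gave GFP-positive signals of 129.5 and 131.1 on day 5, 111.3 and 48.8 on day 6, 150.6 and 104.4 on day 7 and 200.2 and 201.1 on day 8 and GFP-negative signals of 184.8 and 233.5 on day 5, 75.1 and 138.5 on day 6, 90.5 and 57.1 on day 7 and 102.1 and 120.5 on day 8. In GFP-negative cells the 2 highest arrays were those of day 5, and in GFP-positive cells those of day 8. Lama5 passed when the batch 1 array of day 6 GFP-positive cells was left out.

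The third comparison set the selected cardiomyocytes beside day 8 cells. Against day 8 GFP-positive cells, 13 of 35 members were higher and 4 lower, where 13.7% of all genes were higher and 21.8% lower; the median was 0.23 over members and -0.16 over all genes. Against day 8 GFP-negative cells, 15 were higher and 5 lower (15.8% and 21.4% of all genes), with a median of 0.82 beside -0.12; the block gave 18 higher and 4 lower (17.2% and 23.1% of all genes). The cardiomyocyte arrays, which have no batch, entered that fit at the midpoint of the 2 batches. For them the block takes batch out of the day 8 arrays alone. Both comparisons share the cardiomyocyte arrays, so they are not independent. Where single genes below lie above or below every sorted array, the share of all genes that did so was not counted. Leaving out an array took the first count of 17 to 11 without either day 8 GFP-positive array and to 10 without either cardiomyocyte array, and the second count of 20 to 13 without the GFP-negative array of batch 2. With each array left out in turn, 9 of the 17 and 12 of the 20 members passed every time. Over all genes the counts fell as well without each of the arrays named. Equal array medians moved the median of all genes in the first comparison from -0.16 to 0.17.

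Itga7, the laminin receptor of striated muscle, read 204.6 and 175.8 in cardiomyocytes, and 18.5 and 12.7 on day 5, 19.1 and 9.6 on day 6, 13.3 and 12.6 on day 7 and 18 and 22 on day 8 in GFP-positive cells. GFP-negative signals of Itga7 were 12.3 and 3.9 on day 5, 19.2 and 7.1 on day 6, 8.1 and 5.2 on day 7 and 27.2 and 4.9 on day 8. Every sorted array lay at or below 27.2, and Itga7 was tested because 3 arrays, the cardiomyocyte ones and that of day 8 batch 1 GFP-negative cells, reached 22.5. The difference was 2.88 ± 0.49 from GFP-positive (adjusted p = 0.000692) and 3.30 ± 0.49 from GFP-negative cells (0.000248). Melusin read 276.7 and 248.4 in cardiomyocytes, above every sorted array, and differed by 1.74 ± 0.53 (0.0205) and 3.65 ± 0.53 (0.000213). The first of these calls was lost, with adjusted p from 0.075 to 0.0976, without any 1 of the 4 arrays compared.

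Itgb1, partner of most laminin and fibronectin receptor chains, read 1517.8 and 1453.4 in cardiomyocytes. In GFP-positive cells it gave 483.8 and 428.4 on day 5, 501.5 and 281 on day 6, 461.2 and 505.2 on day 7 and 635.9 and 619.5 on day 8, and in GFP-negative cells 302.7 and 278.7 on day 5, 430.4 and 370 on day 6, 412.7 and 332.9 on day 7 and 562 and 445.2 on day 8. The brightest sorted array read 635.9, and the difference from day 8 was 1.23 ± 0.23 (adjusted p = 0.00124) and 1.56 ± 0.23 (0.000238). Itga1 read 208 and 247.3 and differed by 1.24 ± 0.43 (0.0398) and 2.99 ± 0.43 (0.000222). Its first call was lost, with adjusted p from 0.0987 to 0.171, without any 1 of the 4 arrays compared. Itga6 read 1484.1 and 1428 and differed by 0.80 ± 0.55 from GFP-positive cells, which missed the threshold, and by 2.15 ± 0.55 from GFP-negative cells (0.00799; 0.0816 without their batch 2 array). Itga3, another laminin receptor chain, differed by 1.78 ± 0.56 from GFP-negative cells (0.0252; 0.0665 to 0.184 without their batch 2 array or either cardiomyocyte array) and by 0.82 from GFP-positive cells, which missed the threshold.

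Itgb5, the beta chain of a vitronectin receptor, read 2847.4 and 3350.9 in cardiomyocytes. In GFP-positive cells it gave 608.5 and 897.3 on day 5, 397.5 and 410.3 on day 6, 466.8 and 399 on day 7 and 594.7 and 724.3 on day 8, and in GFP-negative cells 804 and 841.6 on day 5, 604 and 917.9 on day 6, 630.5 and 334.1 on day 7 and 941.6 and 271.9 on day 8. The cardiomyocyte arrays exceeded every sorted array, by 2.22 ± 0.44 (adjusted p = 0.00203) and 2.59 ± 0.44 (0.000693) against day 8. Itgav, its partner, read 1796 and 2025.4 and differed by 1.18 ± 0.27 (0.00470) and 1.99 ± 0.27 (0.000139) on the bright probe set. The mean of all 5 probe sets of Itgav, the others dim, turned the first difference to -0.03. The second call was kept in 9 of 10 alternatives that used all arrays and was lost in 1. Itgb8 read 159 and 152.6 and differed by 1.75 ± 0.46 (0.0104) and 2.37 ± 0.46 (0.00162). Of its calls the first was lost, with adjusted p from 0.0519 to 0.0882, without the batch 2 array of GFP-positive cells or either cardiomyocyte array.

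Itga8 read 476.7 and 476.3 in cardiomyocytes. In GFP-positive cells it gave 227.3 and 152.7 on day 5, 175.8 and 134.4 on day 6, 147.4 and 221.2 on day 7 and 139.6 and 142.6 on day 8, and in GFP-negative cells 156.8 and 238.8 on day 5, 183.7 and 139 on day 6, 228.8 and 183.7 on day 7 and 290.6 and 278.9 on day 8. Cardiomyocytes exceeded every sorted array; the difference from day 8 was 1.71 ± 0.27 (adjusted p = 0.000416) and 0.73 ± 0.27 (0.0473). The second call was lost, with adjusted p from 0.0529 to 0.158, without either day 7 GFP-negative array or any day 8 or cardiomyocyte array. Itga9 passed against GFP-negative cells (1.17 ± 0.43, 0.0497), and 11 of the 18 fits that left out an array lost it. Itga5, the fibronectin receptor chain, was dim everywhere: 18.7 and 20.1 on day 5, 24 and 13.6 on day 6, 23.9 and 16.7 on day 7 and 12.8 and 34.6 on day 8 in GFP-positive cells, 14.6 and 19.8 on day 5, 19.6 and 12 on day 6, 17.8 and 11.5 on day 7 and 19.1 and 12.2 on day 8 in GFP-negative cells and 24.7 and 27.1 in cardiomyocytes. Its groups overlapped in part and it passed in no comparison.

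Among laminin chains and linkers, 4 were higher than in day 8 GFP-positive cells and 1 lower. Lama2 read 167.4 and 195.1 in cardiomyocytes (1.88 ± 0.51, adjusted p = 0.0123), Nid2 824.1 and 850.9 (1.68 ± 0.46, 0.0123), Lamc1 454.3 and 579 (1.10 ± 0.38, 0.0378) and Lama1 374.1 and 471.8 (1.37 ± 0.50, 0.0474). For each of these genes both cardiomyocyte arrays exceeded every sorted array, a separation that was not counted over all genes. All 4 calls were lost without cardiomyocyte array 2, and those of Nid2, Lamc1 and Lama1 without array 1. They were also lost without a GFP-positive array of day 8, that of batch 1 (Nid2, Lamc1), batch 2 (Lama2) or either batch (Lama1), with adjusted p up to 0.243, and the Lama1 call in 10 of the 18 such fits in all. Lama3, tested only through late GFP-positive arrays, was lower, by -2.68 ± 0.47 (0.000953).

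Against day 8 GFP-negative cells, 4 laminin chains and linkers were higher and 0 lower: Lamc1 (2.49 ± 0.38, adjusted p = 0.000317), Lama1 (2.54 ± 0.50, 0.00167), Nid2 (2.18 ± 0.46, 0.00264) and Lamb1 (1.69 ± 0.39, 0.00489; 0.0698 when their batch 2 array was left out). With the block Lama2 (1.18, 0.0888 without and 0.00923 with it), Lamb2 (0.82, 0.0920 and 0.0497) and Nid1 (1.31, 0.144 and 0.0112) passed too. Lamb1 read 2495.6 and 2162.7 and Nid1 1034.7 and 1031.3 in cardiomyocytes. Against day 8 GFP-positive cells Nid1 differed by -0.08 ± 0.67 and Lama4 by -1.33; the dimmer probe set of Lama4 gave 0.29 in the latter, so its direction there is unsettled.

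The blood cell integrins made up most of the lower group. Itga2b read 57 and 62.4 in cardiomyocytes, below every sorted array, and differed by -3.52 ± 0.84 from GFP-positive (adjusted p = 0.00593) and -4.57 ± 0.84 from GFP-negative cells (0.00110). Itgb2 read 16 and 27.7 and differed by -3.79 ± 0.84 (0.00396) and -4.71 ± 0.84 (0.000922). Itgb7 read 21.4 and 34.1 and differed by -1.10 ± 0.34 (0.0237) and -1.41 ± 0.34 (0.00629). Without cardiomyocyte array 1 both Itgb7 calls were lost (0.175 and 0.0676), and the first also without either day 8 GFP-positive array. Itgb3 (-2.67 ± 0.93, 0.0382) and Itgal (-1.56 ± 0.57, 0.0473; 0.0505 with the block) were lower than in GFP-negative cells. Itgal, a white blood cell chain, was dim: it read 10.6 and 2.7 in cardiomyocytes, 32.8 and 29.7 in day 8 GFP-negative and 2.7 and 27.2 in day 8 GFP-positive cells, stayed below 22.5 on all other arrays, and so was tested only through the day 8 groups. Its call was lost in 14 of the 18 fits that left out an array, and that of Itgb3 in 6.

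Marker sums stood beside these differences. In cardiomyocytes the megakaryocyte markers summed to 152.4 to 179.2 and the leukocyte markers to 720.4 to 752, against 1650.9 to 1829.2 and 2078.7 to 2337.1 in day 8 GFP-positive cells. Gp9 of platelets read 1.7 and 1.4 and Ptprc of leukocytes 23.9 and 9.7 in cardiomyocytes. The heart muscle markers summed to 57550 to 57784.5, the fibroblast markers to 22318.9 to 22379.2 (2710 to 2757.2 in day 8 GFP-positive cells) and the smooth muscle markers to 17029.7 to 17835.8 (5190.4 to 5339.8). The endothelial sum was 277.5 to 307.1 and the endoderm sum 1320.2 to 1418.4, both below day 8 GFP-positive cells. The part of any of these cells in the member differences was not tested.

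Itgb5 and Lama2 stood higher in cardiomyocytes than in day 8 GFP-positive cells, and the 250 bases before their starts in the same table are shown for that reason (GRCm38.p6, gene's strand; Itgb5 at chr16:33829415-33829664 on the plus strand and Lama2 at chr10:27616943-27617192 on the minus strand). The Lama2 window, all but 1 base, lies inside the annotated gene, whose span ends at 27617191. Capitals again mark GAGGAA and CAGCTG, and in Lama2 also the CArG box of serum response factor.
Itgb5: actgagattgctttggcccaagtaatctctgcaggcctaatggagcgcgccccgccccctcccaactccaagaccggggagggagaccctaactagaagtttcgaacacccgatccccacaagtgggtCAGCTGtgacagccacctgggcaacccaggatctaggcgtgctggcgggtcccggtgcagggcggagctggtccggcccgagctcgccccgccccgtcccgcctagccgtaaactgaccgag
Lama2: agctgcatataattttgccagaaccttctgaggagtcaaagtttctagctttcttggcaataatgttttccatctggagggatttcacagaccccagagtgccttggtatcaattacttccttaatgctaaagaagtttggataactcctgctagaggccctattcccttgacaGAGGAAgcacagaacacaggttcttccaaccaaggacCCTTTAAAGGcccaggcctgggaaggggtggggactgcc
Itgb5 held 1 CAGCTG, with 65.2% G and C against a median of 52.4% over all windows, and Lama2 held 1 GAGGAA and 1 CArG box, which 1.5% of all windows and 2 of the 31 member windows held.

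**Figure D4:**
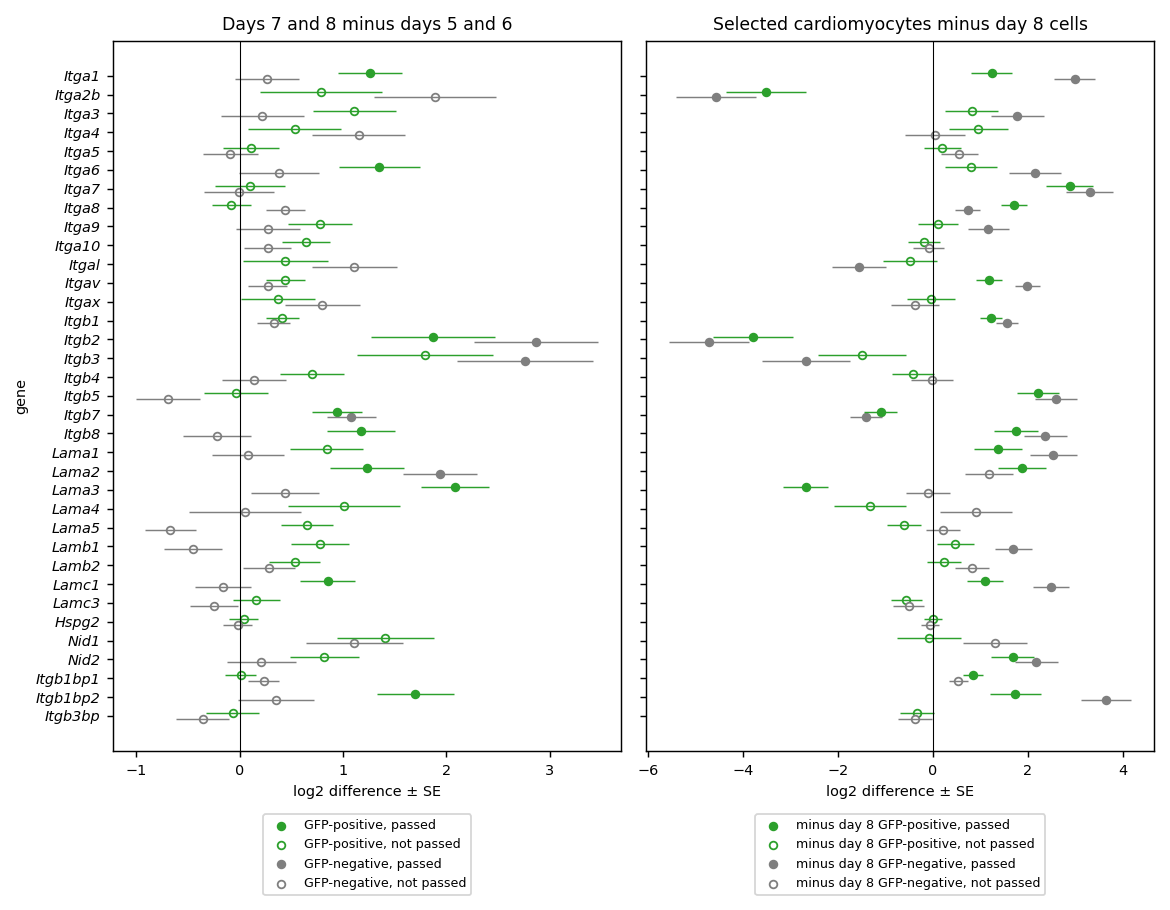
Log2 differences (horizontal axis) with standard errors as bars for the 35 tested members (vertical axis): left, days 7 and 8 minus days 5 and 6; right, selected cardiomyocytes minus day 8 cells. Green is GFP-positive and grey GFP-negative, and filled points passed an adjusted p of 0.05. The right panel reaches from -4.71 (Itgb2) to 3.65 (Itgb1bp2), the left from -0.69 (Itgb5) to 2.87 (Itgb2).

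The remaining symbol-only genes that were tested were Itgb1bp1 and Itgb3bp. Itgb1bp1, which competes with talin for the Itgb1 tail, was higher in cardiomyocytes than in GFP-positive cells (0.85 ± 0.21, adjusted p = 0.00636) and gave 0.54 against GFP-negative cells (0.0551). Itgb3bp, a kinetochore protein despite its name, passed in no comparison. Itga4, the VCAM1 receptor chain, passed as given above in GFP-negative cells with the block. Itga5, Itga10, Itgax, Itgb4, Lamb2, Lamc3, Lama5 and Hspg2 passed in no comparison, apart from Lamb2 with the block. The 7 untested members stayed at or below 26.3 on every array.

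Proteins that work with these receptors were followed through 3 lists. Of all genes, 2.14% were higher and 0.538% lower over all days. The shares that rose and fell were 11.3% and 8.03% with time in GFP-positive and 7.25% and 5.25% in GFP-negative cells. In cardiomyocytes 13.7% of all genes were higher and 21.8% lower against day 8 GFP-positive and 15.8% and 21.4% against GFP-negative cells. Of 24 tested adaptors and kinases, which link integrin tails to actin, 1 was higher in GFP-positive cells over all days (Fermt2, kindlin of most tissues, 0.60 ± 0.14, adjusted p = 0.0372) and 0 lower. In GFP-negative cells 6 rose with time and 1 fell, led by Lims1 (1.07), Vcl (0.75), Tln1 (0.89) and Ilk (0.60); in GFP-positive cells 1 rose (Ptk2b, 1.36). In cardiomyocytes 10 were higher and 3 lower than in day 8 GFP-positive cells, with the lowest p for the actin linkers Vcl (1.61 ± 0.20, 8.42e-05) and Tns1 (2.46 ± 0.36, 0.000288), for Ilk (1.08) and for Fermt3, the kindlin of blood cells (-5.52 ± 1.14, 0.00260). Against GFP-negative cells 11 were higher and 4 lower, led by Actn1 (1.90), Fermt2 (1.83), Fermt3 (-6.99) and Tns1 (2.19).

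Of 19 tested ligands and counter-receptors, 1 was higher in GFP-positive cells over all days, Icam2 (2.27 ± 0.44, adjusted p = 0.0178), which is also on the endothelial list, and 0 lower. With time 9 rose in GFP-positive cells, led by vitronectin (Vtn, 3.05), Ccn2 (2.22), Ccn1 (1.24) and nephronectin (Npnt, 2.16), and in GFP-negative cells 5 rose and 1 fell, led by Thbs1 (2.53), Tnc (1.82), Col1a2 (2.50) and Postn (3.79), of which Col1a2 and Postn are also fibroblast markers. In cardiomyocytes 6 were higher and 5 lower than in day 8 GFP-positive cells, with Vcam1, a ligand of Itga4 and Itga9, at 4.73 ± 0.56 (6.32e-05) and Vtn at -5.07 ± 0.67 (0.000133). Against GFP-negative cells 8 were higher and 2 lower.

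Of 24 tested basement membrane partners, 3 were higher in GFP-positive cells over all days and 0 lower: the collagen IV chains Col4a2 (1.63 ± 0.26, adjusted p = 0.00673) and Col4a1 (1.46 ± 0.23, 0.00683) and agrin (Agrn, 0.80 ± 0.17, 0.0257). With time 10 rose in GFP-positive cells, led by Agrn (1.46), the Lama5 receptor Bcam (1.87), Col15a1 (1.85) and Tinagl1 (2.76), and 1 in GFP-negative cells (Col4a5, 1.50). In cardiomyocytes 11 were higher and 3 lower than in day 8 GFP-positive cells, among them Col4a4 (4.65 ± 0.35, 2.65e-06), Col4a3 (3.22), fibulin Fbln2 (4.64) and Agrn (-2.06). Against GFP-negative cells 15 were higher and 1 lower, led by Col4a4 (4.28), the laminin receptor Dag1 (2.36), Col4a2 (3.72) and Col4a1 (3.23). In the interaction 0 genes of any of the 3 lists passed, and with batch as a block 3 ligands and 2 basement membrane partners did.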

How the data were processed

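RNA of sorted mouse cells and of selected cardiomyocytes was hybridised to Affymetrix arrays after being amplified in 2 rounds, primed by T7 oligo dT, per the labels. The authors deposited linear signal intensity per probe set, computed with GCOS 1.4 and MAS5 per the submitters' processing notes; the genome build is not given in the sources used here. Trimming 2% of probe sets at each end gave array means of 150.0008 to 150.0012, and no detection calls were used. The number of arrays limits the precision.

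Of 45101 probe sets, 64 controls, 9160 without a gene symbol and 932 with several were left out. Each of 18193 genes took its brightest probe set, with those named _x_at used only where a gene had no other. The 13379 genes with a signal of at least 22.5 on at least 2 arrays were tested as log2(signal + 6.8), where 6.8 is the 25th percentile of all values. All 18 arrays entered a model of the 9 groups in limma 3.58.1 in R 4.3.3 (trend, 9 residual degrees of freedom, Benjamini-Hochberg, threshold 0.05), after a check on simulated data. Groups and batches came from the sample titles, where the batch number pairs the sorted arrays. Batch differences correlated at -0.183 to 0.653 over 28 pairs of groups, 13 of them over 0.1. Replicates of a group correlated at 0.954 to 0.983.

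Values are given in every array for members past the threshold (up to 8 of lowest p), for the Lama1, Lamb1 and Lamc1 chains, nidogens, Hspg2, Itgb1, Itga5, Itga6 and Itga7, and for the 2 of lowest p where none passed; from the lists of partner genes up to 4 are named. Members and lists were chosen with earlier results of these data known. Alternatives covered the offset, scaling, filter, probe sets, variance trend, batch or pair as a block, other days as reference and each array left out. Plots used Python 3.11.15 and matplotlib 3.10.9.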

Additional observations from a re-analysis of the deposited data

How the results depend on the processing

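Over all days the count of members past the threshold was 1; it was 0 with an offset of 1, 3 with an offset of 32, 4 with quantile normalization, 4 with equal array medians, 7 with batch as a replicate block and 4 with the pair of the same day and batch as a block in the sorted arrays alone, and 0 to 6 with single arrays left out. On day 8 it was 1, with 0 at offset 1, 4 at offset 32, 4 after quantile normalization, 2 with equal medians, 2 with the mean of all probe sets, 6 with the batch block, and 0 to 4 with single arrays left out. On days 5, 6 and 7 it was 0 under every alternative run. The 9 members that rose in GFP-positive cells became 14 with the mean of all probe sets and 15 with the batch block, and 1 to 16 with single arrays left out. The 4 in GFP-negative cells became 7 with the batch block and 7 for day 8 against day 5, and 1 to 7 with single arrays left out. The interaction count of 0 became 1 (Lama3) with an offset of 32 and 0 to 1 with single arrays left out. The cardiomyocyte counts ranged from 10 to 17 and from 13 to 20 with single arrays left out and otherwise stayed within 1.5 times of 17 and 20. Over all genes, the count over all days was 358, or 724 with the batch block, 594 with the pair block and 129 to 586 with single arrays left out. On day 8 it was 345, with 199 at offset 1, 611 at offset 32, 557 after quantile normalization and 705 with the block, and 0 to 728; for time in GFP-positive cells it was 2590, with 4564 at equal medians and 468 to 3126; in GFP-negative cells 1673, and 315 to 1960. On day 5 it was 2, with 0 to 12 over these settings and 0 to 38 with arrays left out, and on day 6 it was 0, with 1 under the block. The interaction called 19 genes, with 0 at offset 1, without the filter or without the variance trend, 1 for day 8 against day 5, 50 with the mean of all probe sets, 65 after quantile normalization, 118 at offset 32, 142 under the block and 0 to 157 with arrays left out, and the cardiomyocyte counts of 4757 and 4974 fell to 2886 and 3074. Of 1673 alternatives for 60 single-gene results, 1484 kept direction and side of the threshold, 186 no longer passed, 2 newly passed, and 1 reversed: Itgav in cardiomyocytes against day 8 GFP-positive cells, at -0.03 with the mean of all probe sets. The causes of these shifts were not tested. When an array is left out, the lone array of its group is assumed to vary like the other groups. Dim probe sets near 22.5, such as Lama3 outside late GFP-positive cells, limit what can be read from small differences.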
